A study of Homo sapiens with 9 samples.

Results

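The RSK, MSK, S6K and SGK kinases are related serine/threonine kinases at the ends of the ERK, p38 and PI3K-mTOR pathways. The genes described here were RPS6KA1, RPS6KA2, RPS6KA3, RPS6KA4, RPS6KA5, RPS6KB1, RPS6KB2, SGK1, SGK3 and PDPK1, the 10 rows of the deposited count tables with these gene names, of 58735 rows in all. All 10 passed the filter on low counts and were among the 16188 genes tested. RNA was sequenced from MDA-MB-231, a widely used line of triple-negative breast cancer, in 3 groups of 3 libraries. Vehicle-treated cells received DMSO. Erastin-R cells had survived rising concentrations of erastin, an inhibitor of the cystine importer system xc-, and RSL3-R cells those of RSL3, which inhibits the lipid peroxidase GPX4. Both groups are called resistant below only after these names. The labels of these libraries give the treatment and no measure of resistance. The study reports measured resistance for lines that it describes making after this sequencing. Both agents induce ferroptosis, an iron-dependent death by lipid peroxidation, and all 9 libraries came from the same line with no other alteration named. The labels do not say whether the libraries of a group were separate cultures, nor whether the survivors were 1 clone or many, so p-values measure the spread between these libraries, which may be technical.

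In the textbook view, growth factor signals through RAS, RAF and MEK activate ERK, and ERK switches on the RSK kinases. ERK and p38 can each activate the MSK kinases, which act on chromatin and on the transcription factor CREB. PI3K and mTOR complex 1 activate the S6K kinases, which phosphorylate ribosomal protein S6 and promote translation, while mTOR complex 2 activates the SGK kinases, which regulate ion channels, the ubiquitin ligase NEDD4L and FOXO factors. PDPK1 encodes PDK1, which phosphorylates the activation loop of RSK, S6K, SGK and AKT alike. These kinases are controlled mostly by phosphorylation, and the counts measure messenger RNA, not kinase activity. The study chose RPS6KA2 and SGK1 from these same libraries for its heatmaps of pathway genes, with RPS6KA2 in both of them, so the rise of these 2 genes here is no independent evidence of it.

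RPS6KA2 and RPS6KA4 were the members that passed an absolute log2 fold change of 1, and the 250 bases before each of their start sites in RefSeq (GRCh38.p14) are shown to give the sequence context of these 2 genes. RPS6KA2 has 3 listed start sites and RPS6KA4 has 1. Counts were deposited per gene, so which start was used was not measured. Each is written 5′ to 3′ on the gene's strand, and capitals mark a match, on either strand, to the CCAAT box (CCAAT) or to the AP-1 motif (TGANTCA).
RPS6KA2 start 1, chr6:166862526-166862775, minus strand: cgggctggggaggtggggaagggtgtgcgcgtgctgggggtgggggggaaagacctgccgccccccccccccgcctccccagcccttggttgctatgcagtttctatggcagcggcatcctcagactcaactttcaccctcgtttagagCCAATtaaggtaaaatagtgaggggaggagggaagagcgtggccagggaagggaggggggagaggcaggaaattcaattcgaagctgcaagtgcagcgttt
RPS6KA2 start 2, chr6:166627252-166627501, minus strand: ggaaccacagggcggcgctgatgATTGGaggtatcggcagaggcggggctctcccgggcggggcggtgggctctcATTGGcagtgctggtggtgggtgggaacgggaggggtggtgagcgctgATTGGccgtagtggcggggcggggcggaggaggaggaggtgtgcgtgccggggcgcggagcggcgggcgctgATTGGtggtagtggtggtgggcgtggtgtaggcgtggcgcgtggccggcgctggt
RPS6KA2 start 3, chr6:166544691-166544940, minus strand: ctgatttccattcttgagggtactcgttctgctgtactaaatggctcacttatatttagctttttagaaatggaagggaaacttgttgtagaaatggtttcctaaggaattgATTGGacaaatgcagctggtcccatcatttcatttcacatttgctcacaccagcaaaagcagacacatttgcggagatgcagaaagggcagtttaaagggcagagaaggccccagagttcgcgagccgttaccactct
RPS6KA4 start 1, chr11:64358912-64359161, plus strand: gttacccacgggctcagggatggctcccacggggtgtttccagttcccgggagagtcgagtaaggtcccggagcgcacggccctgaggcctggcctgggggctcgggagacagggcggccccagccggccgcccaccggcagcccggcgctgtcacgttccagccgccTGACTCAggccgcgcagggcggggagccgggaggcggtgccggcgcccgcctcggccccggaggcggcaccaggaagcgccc

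The window of RPS6KA2 start 2 held 4 CCAAT boxes, all written as ATTGG because they lie on the opposite strand, and those of starts 1 and 3 held 1 each. Of 35116 windows of the same length in the RefSeq table, 32.0% held at least 1 CCAAT box and 0.874% held 4 or more. The bound of 4 was taken from the window of RPS6KA2 start 2 itself. RPS6KA4 held no CCAAT box and 1 AP-1 motif, a motif found in 6.57% of windows. Neither gene had a match to the CRE (TGACGTCA, 1.65% of windows) or to the ATF4 element (TGATGNAA, 3.14% of windows). No marked motif overlapped another in these windows. A match is a run of letters and not a measured binding site. Of the members whose windows are not printed, RPS6KA5 start 1 held 3 CCAAT boxes. RPS6KA1 start 1 and PDPK1 start 1 held 1 each.

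Total counts ranged from 15405102 to 17273464 per library, and the coefficient of variation between replicates that edgeR estimated over all genes was 8.56%. Log2 levels of libraries correlated at 0.986 to 0.992 within a group. Erastin-R replicate 1 was the library least like its replicates (0.986 with both, against 0.992 between the other 2). All 6 mesenchymal-like markers of the line (VIM, CD44, AXL, FN1, ZEB1 and CAV1) were above 3 counts in every group, and their summed level was 5520 to 5707 CPM in vehicle, 4300 to 4589 CPM in erastin-R and 4918 to 5026 CPM in RSL3-R libraries. They did not move together. From vehicle to erastin-R, mean FN1 went from 2180 to 1034 CPM and CAV1 from 677 to 308. AXL went from 791 to 1186 CPM, and VIM, CD44 and ZEB1 moved less. The 5 leukocyte markers summed to 0.318 to 2.30 CPM over all 9 libraries. The 5 fibroblast markers summed to 7.77 to 12.2 CPM, with COL1A2, LUM and PDGFRA at 3 counts or fewer. The 4 endothelial markers summed to 18.4 to 22.5 CPM in vehicle, 10.8 to 12.6 CPM in erastin-R and 22.4 to 25.7 CPM in RSL3-R libraries, with CDH5 at 3 counts or fewer. The lower sum in erastin-R was that of PECAM1, with means of 9.99 CPM in vehicle and 1.79 CPM in erastin-R. KDR had means of 9.92 and 9.59 CPM in the same groups. The 6 luminal markers summed to 161 to 197 CPM, with PGR at 3 counts or fewer and ESR1 at 1 to 12 counts. Most of that sum was ERBB2 and KRT19, with means of 93.3 and 89.9 CPM in vehicle, against 5.52 for GATA3 and 1.65 for FOXA1. The 4 epithelial junction markers summed to 22.1 to 34.6 CPM. Most of that sum was CLDN4, with means of 27.8 CPM in vehicle, 23.0 in erastin-R and 21.0 in RSL3-R libraries. In the same order, CDH1 had means of 1.14, 0.751 and 3.44 CPM and CLDN3 0.651, 2.17 and 0.593 CPM. EPCAM had 2.15, 1.32 and 1.65 CPM. The part of these markers in the results was not tested. In bulk RNA, fewer cells of a kind and less RNA per cell cannot be told apart.

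RPS6KA2 was the member with the largest rise under both drugs, and SGK1 and RPS6KA3 rose in RSL3-R cells. RPS6KA1, RPS6KA4, RPS6KB2 and PDPK1 fell under both drugs, and SGK3 fell in RSL3-R cells. Some of these changes did not reach an adjusted p under 0.05 in every setting of the analysis. With an adjusted p under 0.05 as the call, 5 of the 10 members were called in erastin-R cells against vehicle, where 54.0% of all 16188 genes were called. Of the members 1 was higher and 4 were lower, against 27.1% and 26.8% of all genes. Without vehicle replicate 1 or 2, or without erastin-R replicate 3, the number called was 3. In RSL3-R cells 8 of 10 were called, 3 higher and 5 lower, against 48.7% of all genes (23.8% higher and 24.9% lower). Between the resistant groups 4 of 10 were called, 2 higher and 2 lower in RSL3-R, against 49.2% of all genes (22.3% higher and 26.9% lower). Adding the study's bound on size, a log2 fold change of 1 or more in either direction, left RPS6KA2 alone in erastin-R cells (13.4% of all genes), RPS6KA2 and RPS6KA4 in RSL3-R cells (10.1% of all genes) and no member between the resistant groups (10.3% of all genes), although SGK1 lay just under that bound at 0.9956. Between those groups 7 members had an unadjusted p under 0.05, and DESeq2 put 1 of them past the fold threshold, SGK1. The members had a median log2 fold change of -0.21 under erastin and of -0.16 under RSL3, and over all genes tested it was -0.004 and 0.005. Both comparisons with vehicle use the same 3 vehicle libraries.

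**Figure D1:**
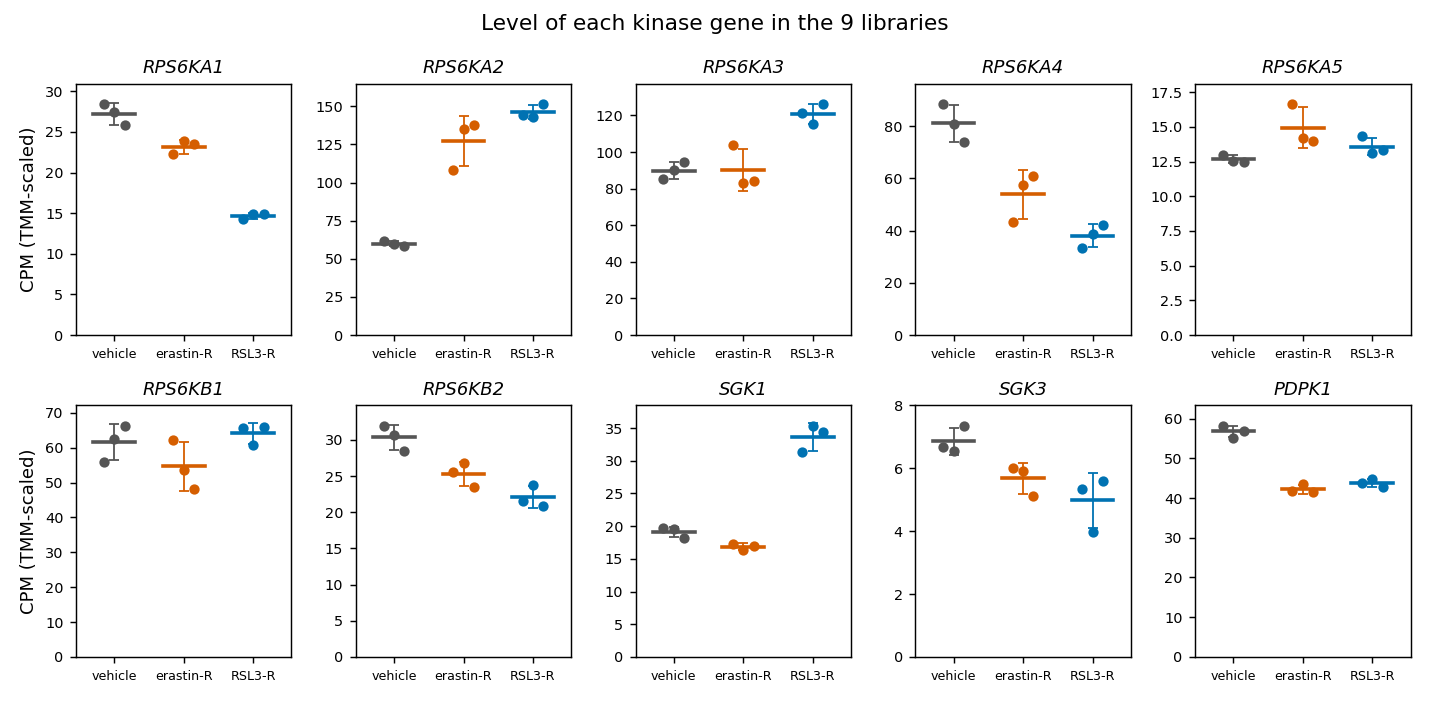
Level of each of the 10 kinase genes in CPM (counts scaled by the TMM library size; vertical axis from 0, own scale per gene) in the 9 libraries, by condition (horizontal axis); points are libraries, horizontal lines are means and error bars are SD (n = 3). The RPS6KA2 libraries of both resistant groups sit above 108 CPM and those of vehicle at 58.5 to 61.6 CPM.

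The 3 RSK genes moved in different ways. RPS6KA2 (ENSG00000071242, chromosome 6, 166409364 to 166906451, minus strand, GRCh38), which encodes RSK3, had 61.6, 60.0 and 58.5 CPM in the vehicle libraries, 109, 135 and 138 CPM in erastin-R and 144, 143 and 151 CPM in RSL3-R. The 3 groups did not overlap, and the lowest erastin-R library was replicate 1. The gene rose 2.12-fold in erastin-R cells (a log2 fold change of 1.08 with a standard error of 0.08, adjusted p = 1.57e-07 by edgeR's quasi-likelihood test) and 2.43-fold in RSL3-R cells (1.28 with a standard error of 0.08, adjusted p = 3.11e-08). Without erastin-R replicate 1 the log2 fold change in erastin-R cells was 1.18. The difference between the resistant groups, 0.20, had an adjusted p of 0.0534 and was called in 8 of 18 settings of the analysis, with values from 0.10 (without erastin-R replicate 1) to 0.30. With a trend by GC content and length removed it was 0.27 with an adjusted p of 0.00357.

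RPS6KA1 (ENSG00000117676, chromosome 1, 26529761 to 26575030), which encodes RSK1, went the other way. It had 28.4, 27.5 and 25.8 CPM in vehicle, 22.2, 23.9 and 23.5 CPM in erastin-R and 14.2, 14.9 and 14.8 CPM in RSL3-R libraries, again with no overlap between the 3 groups. In RSL3-R cells it fell by 46.1% (log2 fold change -0.89, adjusted p = 1.56e-06), and it was lower there than in erastin-R cells (-0.66, adjusted p = 3.35e-05). The smaller decrease in erastin-R cells (-0.23, adjusted p = 0.0303) was called in 10 of 18 settings of the analysis, and leaving out vehicle replicate 1 or 2 or erastin-R replicate 1 or 3 took it past 0.05, with adjusted p values of 0.0577 to 0.1001.

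RPS6KA3 (ENSG00000177189, chromosome X, 20149911 to 20267519), which encodes RSK2 and is the gene mutated in Coffin-Lowry syndrome, rose in RSL3-R cells. Its libraries held 85.2, 89.9 and 94.3 CPM in vehicle, 104, 83.0 and 84.4 CPM in erastin-R and 121, 115 and 126 CPM in RSL3-R. Erastin-R and vehicle overlapped, and every RSL3-R library was above both. The log2 fold change was 0.43 against vehicle (standard error 0.08, adjusted p = 0.000745) and 0.42 against erastin-R (adjusted p = 0.000891), and that of erastin-R against vehicle was 0.01 (95% interval -0.17 to 0.19). RPS6KA6, which encodes the remaining family member RSK4, had 0 counts in 8 libraries and 1 in erastin-R replicate 3, under the floor of 3 counts, and was not tested.

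Set side by side per kilobase of annotated exon, the RSK genes changed in make-up. RPS6KA3 gave 43.2 ± 2.08% of the summed RSK level in vehicle libraries (SD, n = 3), RPS6KA2 34.8 ± 0.979% and RPS6KA1 22.1 ± 1.12%. In erastin-R libraries RPS6KA2 gave 54.1 ± 5.19%, RPS6KA3 32.1 ± 5.24% and RPS6KA1 13.8 ± 0.231%. In RSL3-R libraries the shares were 54.7 ± 0.292%, 37.6 ± 0.585% and 7.70 ± 0.306% in the same order. The RPS6KA2 share exceeded that of vehicle by 19.3 percentage points in erastin-R libraries and by 19.96 in RSL3-R libraries. In each case every resistant library lay above every vehicle library. An exact permutation test (two-sided) gave p = 0.1 for each, the smallest that 3 against 3 libraries allow. With no smaller value possible, the test cannot decide the question, and no conclusion is drawn from it. The study chose RPS6KA2 from these same libraries, so the rise of its share is no independent evidence. The summed RSK level was 21.0 ± 0.0694 CPM per kilobase in vehicle, 28.5 ± 0.970 in erastin-R and 32.4 ± 1.08 in RSL3-R libraries. Levels per kilobase rest on the annotated exons, used or not.

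**Figure D2:**
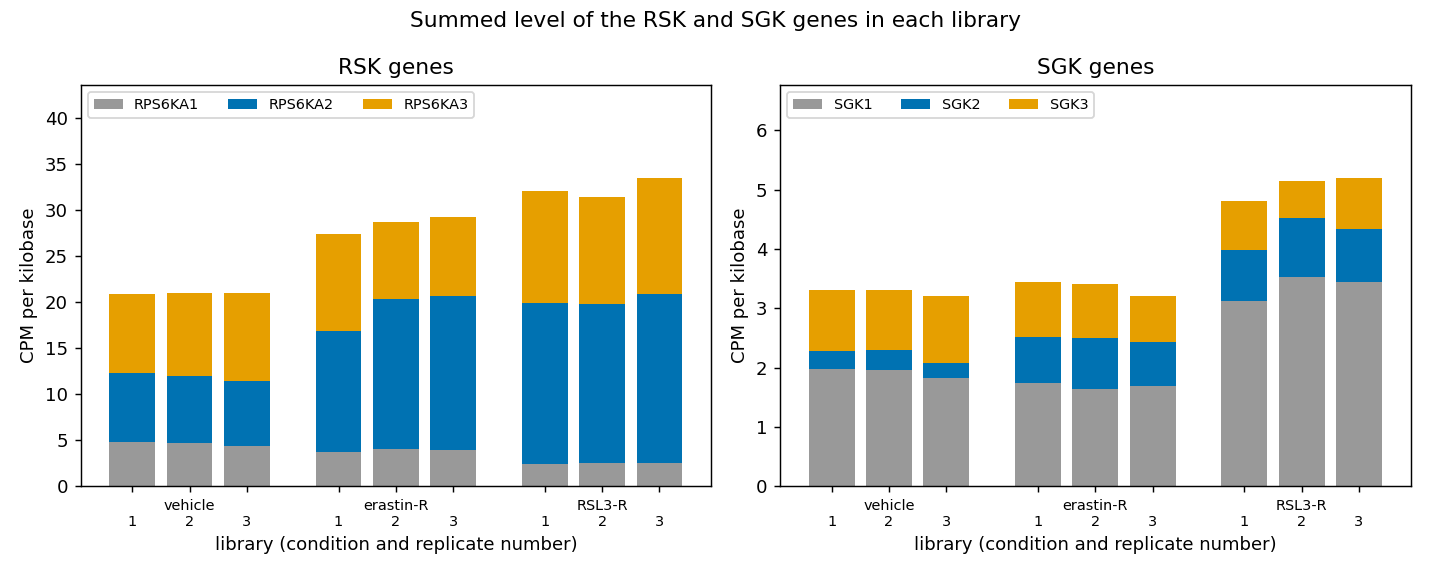
Level in CPM per kilobase of annotated exon (vertical axis) of the RSK genes (left) and the SGK genes (right), stacked, in each of the 9 libraries (horizontal axis, condition and replicate number); RPS6KA6, at 0 to 1 counts, is left out. The RPS6KA2 segment makes up 33.8 to 35.8% of the stack in vehicle and 48.1 to 57.3% in erastin-R libraries, and the SGK stack is tallest in RSL3-R libraries, at 5.05 on average.

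The MSK genes differed in level and in behaviour. RPS6KA4 (ENSG00000162302, chromosome 11, 64359148 to 64372215), which encodes MSK2, had 88.4, 80.9 and 73.9 CPM in vehicle, 43.2, 57.6 and 61.0 CPM in erastin-R and 33.3, 38.6 and 42.0 CPM in RSL3-R libraries. The 3 groups did not overlap. It fell by 33.5% in erastin-R cells (log2 fold change -0.59 with a standard error of 0.12, adjusted p = 0.000846), fell by 53.1% in RSL3-R cells (-1.09 with a standard error of 0.12, adjusted p = 5.72e-06), and was lower in RSL3-R than in erastin-R cells (-0.50, adjusted p = 0.00373). At 64.7%, its longest transcript had the highest GC content of the 10 members. With a trend by GC content and length removed from each library, a setting chosen after seeing the data, the 2 changes against vehicle were -0.83 and -0.96, which takes the RSL3-R value under the fold threshold, and the difference between the resistant groups was -0.14 with an adjusted p of 0.122. Leaving out RSL3-R replicate 1 also took the RSL3-R value under the threshold, to -0.97.

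RPS6KA5 (ENSG00000100784, chromosome 14, 90847862 to 91060636), which encodes MSK1, was the lowest member per kilobase, at 0.453 CPM per kilobase in vehicle against 21.3 for RPS6KA4. It had 12.5 to 13.0 CPM in vehicle, 14.0 to 16.6 CPM in erastin-R and 13.1 to 14.3 CPM in RSL3-R libraries, and was not called in any comparison (0.24 on the log2 scale under erastin with an adjusted p of 0.0728, and 0.10 under RSL3 with an adjusted p of 0.465). In erastin-R cells it was called in 1 of 17 settings (total counts with no scaling factor, adjusted p = 0.0446). Between the resistant groups its value was -0.14 (adjusted p = 0.301), and with GC and length trends removed -0.27 (adjusted p = 0.0217). The annotated exons of RPS6KA5 span 27976 bases, those of RPS6KA4 3807. The rank of RPS6KA5 and the shares per kilobase depend on these lengths. In CPM, the vehicle means were 12.7 for RPS6KA5, 81.1 for RPS6KA4 and 6.85 for SGK3. RPS6KA4 made up 97.9% of the summed MSK level in vehicle, 96.3% in erastin-R and 95.3% in RSL3-R libraries, and that summed level was 21.7, 14.7 and 10.5 CPM per kilobase in turn.

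Of the S6K genes, RPS6KB2 fell against vehicle, and RPS6KB1 was not called in any of the 3 comparisons, though some other settings called it. RPS6KB1 (ENSG00000108443, chromosome 17, 59893046 to 59950564), which encodes S6K1, had 56.0, 62.5 and 66.2 CPM in vehicle, 62.1, 53.7 and 48.3 CPM in erastin-R and 65.8, 60.7 and 66.0 CPM in RSL3-R libraries, and all 3 groups overlapped. The change on the log2 scale was -0.17 in erastin-R (95% interval -0.37 to 0.03, adjusted p = 0.138) and 0.06 in RSL3-R cells (-0.14 to 0.26, adjusted p = 0.617). Without erastin-R replicate 1 the erastin-R value was -0.27 with an adjusted p of 0.00226, and the difference of RSL3-R from erastin-R moved from 0.23 (adjusted p = 0.0535) to 0.33 (adjusted p = 0.000364). Over the 18 settings, the first was called in 3, among them that with GC and length trends removed (-0.16, adjusted p = 0.0417), and the difference between the resistant groups in 8.

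RPS6KB2 (ENSG00000175634, chromosome 11, 67428460 to 67435408), which encodes S6K2, had 31.9, 30.7 and 28.5 CPM in vehicle, 25.6, 26.8 and 23.5 CPM in erastin-R and 21.6, 23.8 and 20.8 CPM in RSL3-R libraries. Every resistant library was below every vehicle library, while the resistant groups overlapped. It fell by 16.7% in erastin-R cells (log2 fold change -0.26, adjusted p = 0.0224) and fell by 27.3% in RSL3-R cells (-0.46, adjusted p = 0.000789). The erastin-R call was lost without vehicle replicate 1 or 2 or erastin-R replicate 3, with adjusted p values of 0.0629 to 0.0927. The antisense gene RPS6KB2-AS1 overlaps 8.07% of its exons and had 0 counts in every library. RPS6KB1 gave 60.5 ± 3.35% of the summed S6K level in vehicle, 62.0 ± 2.47% in erastin-R and 68.8 ± 2.52% in RSL3-R libraries (SD, n = 3).

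SGK1 separated the 2 drugs. SGK1 (ENSG00000118515, chromosome 6, 134169246 to 134318112, minus strand) is known as a gene whose transcript is induced quickly by serum, glucocorticoids and cell shrinkage. Its libraries held 19.7, 19.5 and 18.3 CPM in vehicle, 17.3, 16.4 and 17.0 CPM in erastin-R and 31.3, 35.3 and 34.4 CPM in RSL3-R. The RSL3-R libraries lay well above all others, and those of erastin-R just below vehicle. It rose 1.76-fold in RSL3-R cells (log2 fold change 0.81 with a standard error of 0.09, adjusted p = 3.36e-06) and was 1.99-fold higher there than in erastin-R cells (0.9956 with a standard error of 0.09, adjusted p = 8.27e-07). In erastin-R cells the value was -0.18 (95% interval -0.37 to 0.01, adjusted p = 0.0996). SGK1 passed the fold threshold between the resistant groups under 5 other normalizations, filters or fits, where the value was 1.01 to 1.10.

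SGK3 (ENSG00000104205, chromosome 8), whose kinase is directed to endosomes by a lipid-binding domain, had 6.55 to 7.34 CPM in vehicle, 5.11 to 6.02 CPM in erastin-R and 3.98 to 5.61 CPM in RSL3-R libraries. It fell by 27.3% in RSL3-R cells (log2 fold change -0.46 with a standard error of 0.16, adjusted p = 0.0278), a call lost without vehicle replicate 1 or 3 or RSL3-R replicate 1 or 2 (adjusted p = 0.0534 to 0.122). In erastin-R cells the value was -0.27 (95% interval -0.61 to 0.07, adjusted p = 0.160). The neighbouring gene C8orf44 lies on the same strand, covers 6.04% of the exons of SGK3 and had 30 to 75 counts, so some reads of the 2 genes may not be told apart.

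SGK2, the family member outside the 10, was low but rose under both drugs. It had 21 to 29 counts in vehicle, 62 to 70 in erastin-R and 69 to 83 in RSL3-R libraries, which is a 2.60-fold rise in erastin-R (log2 fold change 1.38 with a standard error of 0.20, adjusted p = 4.50e-05) and a 3.02-fold rise in RSL3-R cells (1.59 with a standard error of 0.19, adjusted p = 1.25e-05). Per kilobase it gave 9.20 ± 1.34% of the summed SGK level in vehicle, 23.5 ± 1.47% in erastin-R and 18.1 ± 1.14% in RSL3-R libraries (SD, n = 3). SGK1 gave 58.5 ± 1.37%, 50.4 ± 2.42% and 66.6 ± 1.88%, and SGK3 32.3 ± 2.59%, 26.1 ± 1.35% and 15.3 ± 2.88%, in the same order. The summed SGK level was 3.28 ± 0.0573, 3.36 ± 0.125 and 5.05 ± 0.209 CPM per kilobase.

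PDPK1 (ENSG00000140992, chromosome 16, 2537964 to 2603188) fell to a similar level in both resistant groups. It had 58.1, 55.2 and 57.0 CPM in vehicle, 41.7, 43.5 and 41.5 CPM in erastin-R and 43.7, 44.9 and 42.8 CPM in RSL3-R libraries, and the resistant libraries overlapped each other but not vehicle. It fell by 25.7% in erastin-R (log2 fold change -0.43 with a standard error of 0.06, adjusted p = 8.14e-05) and fell by 22.8% in RSL3-R cells (-0.37, adjusted p = 0.000291), and the resistant groups differed by 0.05 (95% interval -0.09 to 0.19). The gene has a near copy. Of all 50-base words of its transcripts 49.2% occur in other genes, 24.6% in the pseudogene PDPK2P, so its counts rest on the reads that mapped uniquely and are uncertain. PDPK2P itself had 46 to 86 counts in vehicle, 29 to 39 in erastin-R and 60 to 77 in RSL3-R libraries. The antisense genes AC141586.3 and AC093525.7 overlap 16.8% and 6.85% of its exons and had 0 and 0 to 7 counts.

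**Figure D3:**
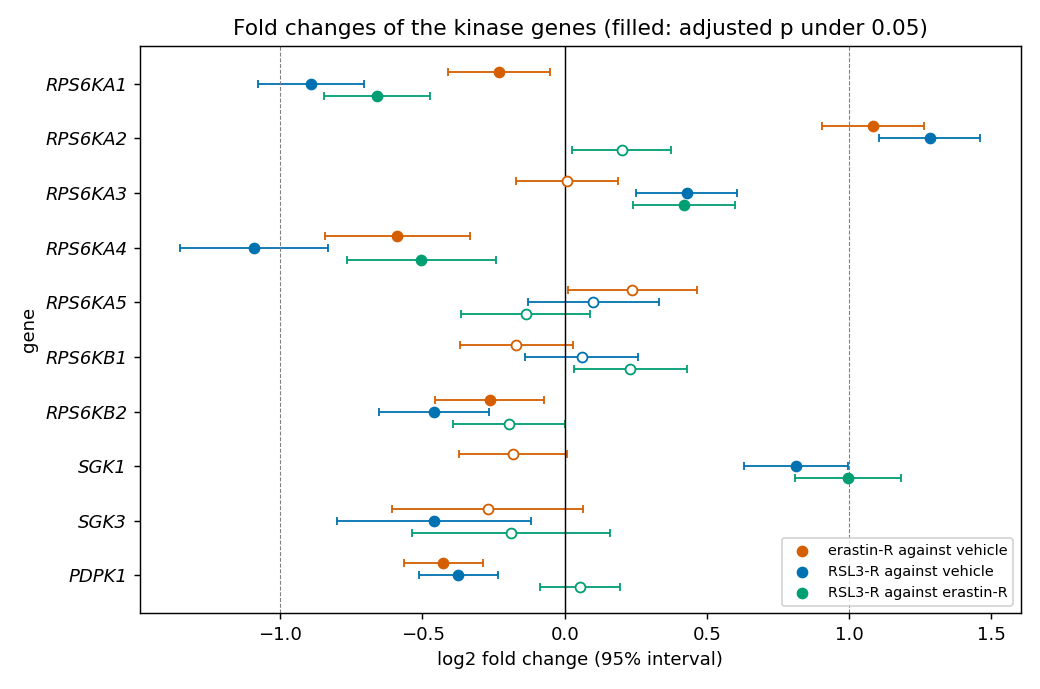
Log2 fold change (horizontal axis) of each kinase gene (vertical axis) in the 3 comparisons, with 95% intervals from edgeR; filled points have an adjusted p under 0.05, and dashed lines mark a log2 fold change of -1 and 1. RPS6KA2 stands beyond 1 against vehicle in both resistant groups (1.08 and 1.28), RPS6KA4 beyond -1 in RSL3-R (-1.09), and the SGK1 interval is above 0 only in the comparisons with RSL3-R.

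Ordered by level per kilobase, RPS6KA4 led in vehicle libraries at 21.3 ± 1.90 CPM per kilobase (SD, n = 3), and RPS6KA3 (9.05 ± 0.460), RPS6KB1 (8.01 ± 0.673) and RPS6KA2 (7.28 ± 0.185) followed. Of these neighbours, RPS6KA3 and RPS6KB1 overlapped between libraries, as did RPS6KB1 and RPS6KA2. RPS6KB2 (5.22), PDPK1 (5.20) and RPS6KA1 (4.63) came next, the first 2 of them overlapping, and SGK1 (1.92), SGK3 (1.06) and RPS6KA5 (0.453) were lowest. In erastin-R libraries RPS6KA2 (15.4 ± 1.97) and RPS6KA4 (14.2 ± 2.49) were at the top and overlapped. RPS6KA2 led in RSL3-R libraries (17.7 ± 0.555), with RPS6KA3 (12.2 ± 0.541) and RPS6KA4 (9.98 ± 1.15) after it and no overlap among the 3. RPS6KA2 thus moved from rank 4 to rank 1, and RPS6KA1 from rank 7 in vehicle to rank 8 in RSL3-R libraries, below SGK1 (2.49 against 3.37). SGK3 and RPS6KA5 kept ranks 9 and 10 in all 3 groups.

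The more distant relatives RPS6KC1 and RPS6KL1 changed as well. RPS6KC1, whose product carries lipid-binding and kinase-like domains, had 37.8 to 40.8 CPM in vehicle, 43.6 to 52.0 CPM in erastin-R and 53.8 to 55.1 CPM in RSL3-R libraries. It rose in both (log2 fold change 0.29, adjusted p = 0.00574, and 0.48, adjusted p = 0.000150). RPS6KL1 had 10.7 to 13.2 CPM in vehicle and 8.38 to 8.83 CPM in RSL3-R libraries and fell there (-0.50, adjusted p = 0.00282), while in erastin-R cells its value was -0.19 (adjusted p = 0.187). Of the 4 relatives outside the members 3 were tested, and 2 were higher and none lower in erastin-R cells (54.0% of all genes called), and 2 higher and 1 lower in RSL3-R cells (48.7% of all genes called).

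Upstream of the RSK and MSK genes, the 16 genes of the ERK cascade (RAS, RAF, MEK and ERK genes with their adaptors) were split. In erastin-R cells 4 were higher, 3 lower and 9 not called, with a median log2 fold change of -0.05, where 54.0% of all genes were called, and in RSL3-R cells 4 were higher, 8 lower and 4 not called, with a median of -0.13, where 48.7% of all genes were called. HRAS alone passed the fold threshold. This RAS gene had 55.7 to 63.3 CPM in vehicle, 39.1 to 51.7 CPM in erastin-R and 28.4 to 31.1 CPM in RSL3-R libraries, with log2 fold changes of -0.36 (adjusted p = 0.00675) and -1.002 (adjusted p = 2.17e-06). Of the 6 genes for p38 kinases and their activators, 3 were higher and 1 lower in erastin-R cells (27.1% and 26.8% of all genes), and 2 higher and 2 lower in RSL3-R cells (23.8% and 24.9% of all genes). MAPK13, which encodes p38 delta, rose from 138 to 152 CPM in vehicle to 271 to 284 CPM in erastin-R (log2 fold change 0.95, adjusted p = 1.60e-08) and 327 to 339 CPM in RSL3-R libraries (1.20, adjusted p = 1.25e-09). MAP2K6, which encodes the p38 activator MKK6, was low at 2.50 to 3.46 CPM in vehicle and fell in both (-1.25, adjusted p = 0.00498, and -2.21, adjusted p = 0.000175). MAPK13, like RRAS2, SOS2 and MAP2K2 of the ERK list, was shown in the study's heatmaps and so was selected on these libraries.

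Of the 22 genes for PI3K, AKT and mTOR, which lie upstream of the S6K and SGK genes, 21 were tested. In erastin-R cells 11 were higher, 5 lower and 5 not called (median log2 fold change 0.20), against 27.1% of all genes higher and 26.8% lower. In RSL3-R cells 8 were higher, 8 lower and 5 not called (median 0.07), against 23.8% and 24.9% of all genes. PIK3CD, which encodes the PI3K catalytic subunit p110 delta, rose from 25.9 to 31.1 CPM in vehicle to 54.0 to 69.5 CPM in erastin-R (log2 fold change 1.13, adjusted p = 5.70e-07) and 41.9 to 46.7 CPM in RSL3-R libraries (0.61, adjusted p = 0.000185). PIK3R3, a regulatory subunit, fell from 7.15 to 7.83 CPM in vehicle to 3.10 to 4.64 CPM in erastin-R (-0.99, adjusted p = 0.000414) and 1.99 to 2.98 CPM in RSL3-R libraries (-1.56, adjusted p = 1.47e-05). PIK3CD, PIK3CA and RICTOR of this list were also in the study's heatmaps. Between the resistant groups 3 of the 21 were higher and 9 lower in RSL3-R, against 22.3% and 26.9% of all genes.

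Downstream, 22 genes listed as substrates of these kinases showed no common direction against vehicle, with 7 higher and 6 lower in erastin-R cells (median log2 fold change 0.02) and 8 higher and 9 lower in RSL3-R cells (median -0.13). The list includes MAD1L1, which is not an established substrate. Of all genes, 27.1% were higher and 26.8% lower in erastin-R, and 23.8% and 24.9% in RSL3-R cells. Between the resistant groups 3 were higher and 14 lower in RSL3-R (median -0.26), against 22.3% and 26.9% of all genes. The largest change belonged to NEDD4L, the ubiquitin ligase that SGK kinases phosphorylate. It had 151 to 163 CPM in vehicle, 399 to 424 CPM in erastin-R and 292 to 302 CPM in RSL3-R libraries, and rose in both (1.39, adjusted p = 5.41e-10, and 0.92, adjusted p = 1.37e-08). GSK3B of this list was in the study's heatmaps, and RPTOR and TSC2 are in this list and in that for mTOR.

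**Figure D4:**
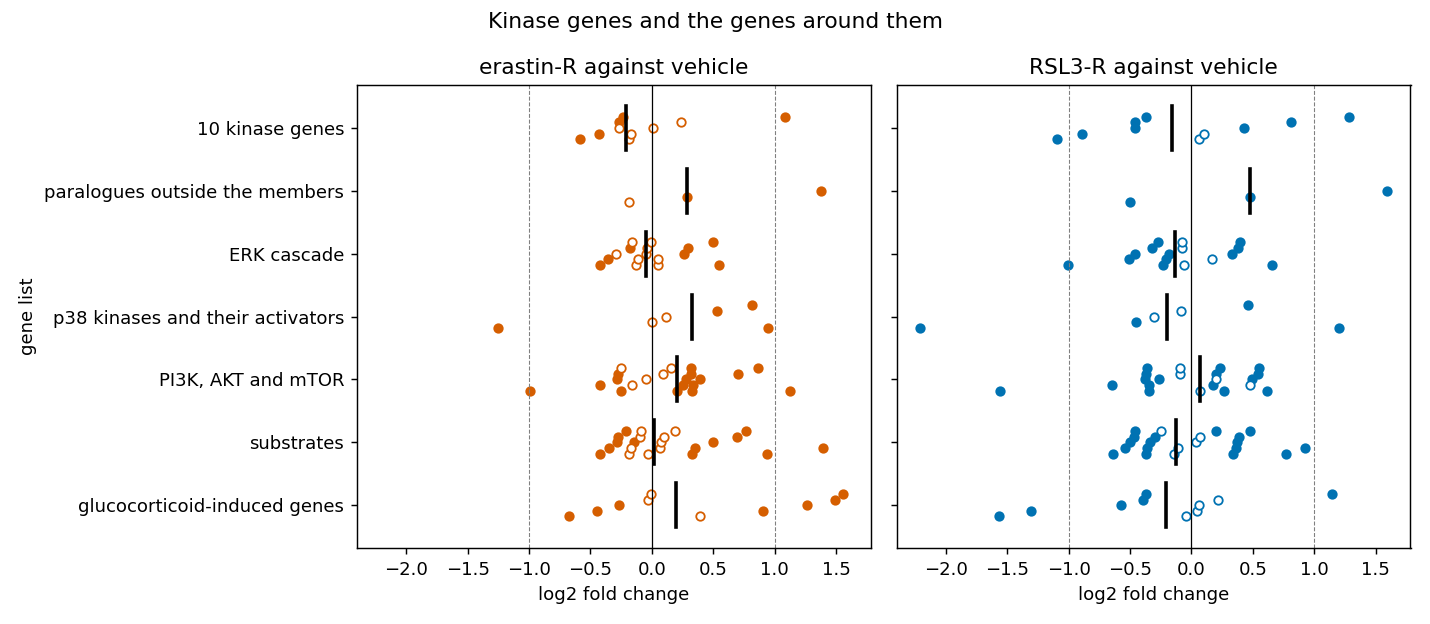
Log2 fold change (horizontal axis) of every tested gene of the 10 kinase genes and of the 6 gene lists around them (vertical axis) in erastin-R (left) and RSL3-R cells (right) against vehicle; filled points have an adjusted p under 0.05, black bars are list medians and dashed lines mark -1 and 1. The paralogues outside the members are SGK2, RPS6KC1 and RPS6KL1, and MAP2K6 is the lowest point on both sides (-1.25 and -2.21).

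SGK1 is known as a glucocorticoid-induced gene, and 10 other such genes were read beside it. They did not all move in 1 direction, and a part of glucocorticoids in these changes was not tested. In RSL3-R cells, where SGK1 rose, 1 was higher, 5 lower and 4 not called (median log2 fold change -0.21), against 23.8% of all genes higher and 24.9% lower. In erastin-R cells 4 were higher, 3 lower and 3 not called (median 0.19), against 27.1% and 26.8% of all genes. Between the resistant groups 3 were higher and 6 lower in RSL3-R (median -0.73), against 22.3% and 26.9% of all genes. FKBP5, a co-chaperone of the glucocorticoid receptor, fell in both (-0.67, adjusted p = 1.14e-06, and -1.57, adjusted p = 4.45e-10). PER1, a clock gene, had 39.0 to 45.5 CPM in vehicle, 113 to 137 CPM in erastin-R and 31.2 to 33.9 CPM in RSL3-R libraries, and thus rose in erastin-R (1.56, adjusted p = 7.11e-09) and fell in RSL3-R cells (-0.37, adjusted p = 0.00324). CEBPD, a transcription factor, did the same (1.496, adjusted p = 9.14e-07, and -0.40, adjusted p = 0.0356). DUSP1, a phosphatase of MAP kinases, rose in erastin-R cells (1.27, adjusted p = 1.11e-06) and had a value of 0.22 in RSL3-R cells (adjusted p = 0.152). ZBTB16 was low, at 1.79 to 2.09 CPM in vehicle, and fell in RSL3-R cells (-1.31, adjusted p = 0.00113). ERRFI1, an inhibitor of the EGF receptor, was the gene of this list that rose in RSL3-R cells (1.14, adjusted p = 7.80e-10), and it rose in erastin-R cells as well (0.90, adjusted p = 9.95e-09).

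Likeness of pattern was taken as the root mean square difference of log2 CPM, each gene less its vehicle mean, over the 9 libraries among 12247 protein-coding genes. The 5 genes nearest to RPS6KA2 were the glutamine transporter gene SLC1A5 (0.07), the mitochondrial superoxide dismutase gene SOD2 (0.09), TNXB (0.09), which has a near copy in the genome and so an uncertain count, the autophagy kinase gene ULK1 (0.09) and IGDCC4 (0.10). Their log2 fold changes were 1.12 to 1.16 in erastin-R and 1.16 to 1.34 in RSL3-R cells. Nearest to SGK1 were NFE2L1 (0.08), OGT (0.08), ITGB4 (0.09) and FLRT2 (0.09), with log2 fold changes of -0.18 to -0.07 in erastin-R and 0.75 to 0.87 in RSL3-R cells. These genes were found by their likeness, which is therefore a description.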

How the data were processed

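Total RNA was extracted with Trizol, poly(A) selected and made into libraries with a NEBNext Ultra kit. The submitters' processing notes name HISAT2 2.0.5 and featureCounts 1.5.0-p3, and the study's methods state that uniquely mapped reads in exons were used. Strand setting and genome build are not given in the sources used here; start and end matched GENCODE 29 (GRCh38) for 58724 of 58735 genes. The authors deposited raw counts per gene, and FPKM values (called RPKM in the methods), which served for 1 filter and 1 scale of the alternatives. Groups came from the labels.

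Counts were analysed with edgeR 4.0.16 in R 4.3.3 (TMM, filterByExpr, quasi-likelihood test, 1 model of 9 libraries, no covariate), with p-values adjusted by the Benjamini-Hochberg method over 16188 genes. The study's text names Cufflinks and an unadjusted p, and a figure legend the adjusted threshold used here. Genes named are the members, their 4 paralogues, list genes with an adjusted p under 0.05 and a log2 fold change beyond 1 or -1 in any comparison, and the 5 nearest genes of RPS6KA2 and SGK1; some genes covered by this rule or these lists are not reported here by name. Members, lists and tests were chosen with earlier results of these data known. Alternatives were DESeq2 1.42.0, limma 3.58.1 after quantile normalization, other filters and scalings, a model of 2 conditions, a replicate block, each library left out and an unadjusted p; removing GC and length trends (lowess, span 0.3) was added after seeing the data. Same-numbered libraries did not deviate together (mean r -0.00494 over 9 pairs, 0.00257 over 18 others), so numbers were not taken to pair them. The tests were tested on simulated data. Intervals are 95% intervals. The floor of 3 counts covers counting error only. Promoter windows came from RefSeq (GRCh38.p14), in which 9 of the 10 members had an entry. Shares were compared by exact permutation tests (SciPy 1.17.1), and figures drawn with matplotlib 3.10.9 (Python 3.11.15).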

Additional observations from a re-analysis of the deposited data

How the results depend on the processing

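RPS6KA2 against vehicle was called in 18 of 18 settings in both resistant groups (log2 fold change 1.02 to 1.18 and 1.26 to 1.33), RPS6KA4 and PDPK1 likewise. Members past the adjusted p in erastin-R numbered 3 to 5 with a library left out (3 without vehicle replicate 1 or 2, or erastin-R replicate 3). Members past the fold threshold in RSL3-R numbered 1 to 2 with a library left out, and 1 with GC and length trends removed, where RPS6KA4 dropped to -0.96. Between the resistant groups 7 members passed an unadjusted p, and 1 (SGK1) passed the fold threshold under DESeq2, a mean FPKM of at least 1, upper-quartile scaling, quantile normalization with limma, and the model of 2 conditions; with a library left out this count was 0 to 1 (1 without erastin-R replicate 1, RSL3-R replicate 1 or RSL3-R replicate 3).

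With the replicate block, 4, 8 and 4 members passed the adjusted p in the 3 comparisons; RPS6KA1 in erastin-R was lost (-0.23, adjusted p = 0.0544), the only member call it changed. The numbers were not taken to pair the libraries.

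The sign of uncalled values turned for RPS6KA3 in erastin-R (-3.656e-05 with no filter, -0.004588 with the FPKM filter, -0.04399 with upper-quartile scaling, -0.03109 with quantile normalization, -0.1031 to 0.06585 with a library left out), for RPS6KB1 in RSL3-R (-0.01149 with GC and length trends removed, -0.004852 to 0.11 with a library left out) and for RPS6KA5 in RSL3-R (-0.11 with those trends removed). The cause was not tested. Of 564 values compared with the main ones, 513 kept direction and side of the threshold. The 564 include the unadjusted p, which reuses the main log2 fold change and so cannot change its direction. The RPS6KA2 share moved between 17.7 and 22.3 percentage points in erastin-R and between 19.5 and 20.5 in RSL3-R with a library left out. Among the members SGK3, at 64 to 119 counts a library, had the widest intervals.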
